A study of Mus musculus with 9 samples.

Results

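The homeobox and paired genes outside the Hox clusters were examined in poly(A) RNA of wild-type mouse testis after immunoprecipitation with an antibody against N4-acetylcytidine (ac4C), an acetylated cytidine that the enzyme NAT10 writes into RNA. Members were the protein-coding genes of GENCODE vM21 (mm10) whose symbol is Lhx, Dlx, Pax, Irx, Pitx, Otx, Emx, Msx, Gsx, Meis, Pbx, Cdx or Gbx followed by a number, or is of the SINE class (Six2 and its numbered relatives), or begins with Nkx and a number or with Pou, a number and f. There were 88 such genes among the 55401 genes of the count table. The study asked which testis mRNAs carry ac4C by comparing 3 groups of 3 libraries each. The groups were input poly(A) RNA that saw no antibody, RNA recovered with control IgG, and RNA pulled down by an antibody to ac4C (acRIP). All 9 libraries came from the testis of males of WT genotype, for which the methods name ICR mice, and the age was not given in the sources used here. Before precipitation an in vitro transcribed, ac4C-containing β-globin RNA was mixed in as a control, and all libraries were made by Smart-seq2, which amplifies full-length cDNA. The labels do not say whether replicates are separate animals, separate precipitations or repeated libraries, so every p-value measures only the spread between these libraries.

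A homeobox encodes the homeodomain, a DNA-binding fold of helices whose last helix, the recognition helix, lies in the major groove of DNA. Classes differ by what stands beside it. LIM-homeodomain factors (Lhx) carry LIM domains that bind the adaptor Ldb1, POU factors carry a further POU-specific domain, the SINE class carries a domain that binds Eya coactivators, and Pax factors carry a paired domain with or without a homeodomain. TALE factors (Pbx, Meis, Irx) have a loop of extra residues in the homeodomain, and Pbx and Meis act as partners of Hox proteins. Most of these genes are known from the patterning of embryos, and a few, such as Pbx4 and Pou5f2, from male germ cells.

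Most members share a stretch of coding sequence. Most of the symbols used to choose them name homeobox families, so this sharing follows from the choice and is a description. The codon signature of the recognition helix was searched in frame on the coding strand of every annotated coding sequence, and it occurred in 81 of the 88 members (92%) and in 223 of all 21853 protein-coding genes (1.02%). The 7 members without it included Pax1, Pax2, Pax5, Pax8, Pax9 and Pou5f2. The 18 bases of the signature are printed here for members that stood apart from both controls in acRIP and have it within a single exon, to show the stretch that the members share. Coordinates are those of GRCm38 (mm10), the strand is that of the gene, exon numbers are those of the transcript with the longest coding sequence, and capitals mark the third codon, which encodes the residue best known for setting which bases the homeodomain prefers.
Lhx8, chr3:154311703-154311720, minus strand, exon 8: tggtttCAGaactgcagg
Pax3, chr1:78122736-78122753, minus strand, exon 6: tggtttAGCaaccgccgt
Msx2, chr13:53468391-53468408, minus strand, exon 2: tggttcCAGaaccgaagg
Lhx6, chr2:36091116-36091133, minus strand, exon 8: tggtttCAAaactgccga
Lhx9, chr1:138831604-138831621, minus strand, exon 5: tggttcCAAaacgcacga
Irx2, chr13:72630811-72630828, plus strand, exon 2: tggttcGCCaacgcgcgc
Six4, chr12:73112381-73112398, minus strand, exon 1: tggttcAAGaaccggcgg
Pou2f3, chr9:43134548-43134565, minus strand, exon 10: tggttcTGCaatcgacgc
Pou5f1, chr17:35510300-35510317, plus strand, exon 5: tggttcTGTaaccggcgc

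The third codon was CAG or CAA in 40 members, among them all 8 Lhx genes and all 6 Dlx genes. It was AAG or AAA in 11 members, the SINE-class, Pitx and Otx genes, and TGC or TGT in 13 POU genes. All 6 Irx genes had GCC. The LIM gene that rose in acRIP (Lhx8) and a LIM gene that had no count there (Lhx6) both have a codon of the first kind.

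Total counts ran from 22023925 to 31340090 in the input libraries, from 14647542 to 18786779 in IgG and from 16025779 to 18639134 in acRIP. Genes with at least 1 count numbered 28552 to 29642 in input, 26204 to 26874 in IgG and 22206 to 22402 in acRIP. Summed markers of spermatids stood at 18200 to 20400 CPM (counts scaled to library size) in input, 21500 to 22200 in IgG and 21800 to 23200 in acRIP, while Sertoli markers, of which Rhox5 and Rhox8 had no count in any group, stood at 876 to 911, 800 to 847 and 729 to 755. Markers of spermatogonia stood at 829 to 851, 538 to 583 and 518 to 534 CPM, with 2 of 7 lower and 1 higher in acRIP than in IgG, and those of peritubular cells at 42.9 to 44.6, 55.9 to 62 and 61.1 to 65.6. Erythrocyte markers other than globin summed to 187 to 205 CPM in input, 129 to 138 in IgG and 86 to 88.8 in acRIP. Macrophage markers summed to 37.2 to 39, 36.6 to 39.1 and 38.4 to 43.1 CPM and endothelial markers to 18.3 to 21.1, 16.3 to 19.2 and 13.7 to 15.3, and in each of these lists 2 of 5 markers were lower and 1 higher in acRIP than in IgG. Epididymis markers summed to 13.7 to 15.2, 12.8 to 13.6 and 31.1 to 32.1 CPM, although 6 of the 9, Lcn5 among them, had no acRIP count. The part of these differences in the results on single genes was not tested. All 3 groups are libraries of extracted RNA, so these marker levels do not measure numbers of cells.

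Of the 88 members, 20 had no count in any library, 25 had counts but were too low to be tested, and 43 were tested among 22510 genes. The filter asked for about 0.537 CPM in at least 3 of the 9 libraries. The 20 without a count were Cdx1, Cdx4, Emx1, Gbx2, Irx1, Irx4, Nkx1-1, Nkx2-1, Nkx2-2, Nkx2-5, Nkx2-9, Nkx3-2, Nkx6-3, Otx2, Pax8, Pitx1, Pou3f4, Pou4f3, Six3 and Six6. The 25 below the filter were Cdx2, Dlx1, Dlx2, Dlx3, Gbx1, Gsx1, Gsx2, Irx3, Irx6, Lhx3, Lhx5, Meis2, Msx1, Msx3, Nkx1-2, Nkx2-3, Otx1, Pax4, Pax7, Pitx3, Pou1f1, Pou3f1, Pou3f2, Pou3f3 and Pou4f2. Cdx2, an intestinal and trophectoderm factor, had 26, 14 and 2 counts in the IgG libraries and none elsewhere. Single counts of the other 24 did not pass 18, and 19 of the 25 had no count in acRIP. Here 0 counts leave room for up to 3, a limit that covers counting error only.

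The number of members with at least 1 count was 55 to 59 in each input library, 53 to 55 in each of IgG and 37 to 40 in each of acRIP. The acRIP range lay below both others, as it did for all genes. With 3 libraries against 3, a two-sided exact permutation test cannot go below 0.10, and none is given. The summed level of the members did not fall with their number. It was 444.2 to 460.37 CPM in input, 518.79 to 547.89 in IgG and 500.24 to 517.92 in acRIP. Pbx4, Pou5f2 and Pou6f1 supplied 60.2% to 62.3% of the member counts in input, 55.9% to 56.3% in IgG and 49.4% to 50.7% in acRIP.

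**Figure D1:**
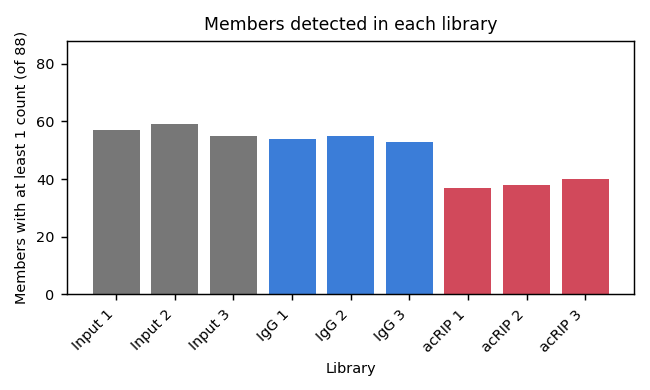
Number of the 88 genes with at least 1 count (vertical axis) in each of the 9 libraries (horizontal axis), coloured by group. The acRIP libraries hold 37 to 40 of the genes, below the 53 to 59 of the IgG and input libraries.

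Levels between genes were compared per exon length as FPKM, computed here from the counts, the library totals and the deposited exon lengths. Pbx4, a TALE gene known from spermatocytes, was the highest member, at 69.2, 67.1 and 71.5 FPKM in input, 74.5, 77.7 and 71.6 in IgG and 71.0, 65.3 and 60.6 in acRIP. Pou5f2, a POU gene of male germ cells, stood at 55.9, 51.6 and 55.3 FPKM in input, 67.3, 65.1 and 63.4 in IgG and 46.8, 45.4 and 51.7 in acRIP. In FPKM the acRIP libraries of Pbx4 overlap input and end just short of IgG, and on the TMM scale used for the tests they overlap IgG too. The acRIP libraries of Pou5f2 all lie below the IgG libraries. Nkx2-6, a gene of the pharyngeal endoderm and heart, stood at 28.3, 22.3 and 22.0 FPKM in input, 23.5, 17.9 and 16.7 in IgG and 35.4, 36.0 and 33.5 in acRIP. Nkx6-2, known from oligodendrocytes, stood at 9.20, 8.88 and 9.12 FPKM in input, 12.5, 13.8 and 11.8 in IgG and 16.1, 16.4 and 15.5 in acRIP. Both Nkx genes were above the other groups in every acRIP library, by a margin that stayed below the 2-fold threshold. Pou6f1 stood at 6.59, 6.76 and 7.29 FPKM in input, 5.78, 6.33 and 6.48 in IgG and 5.76, 6.32 and 6.24 in acRIP, with acRIP and IgG overlapping. In input the order Pbx4, Pou5f2, Nkx2-6, Nkx6-2 held without overlap of the ranges, whereas Pou6f1 and the next gene, Lhx2 (6.64 ± 0.792, SD, n = 3), overlapped. The remaining 38 tested members had mean input levels of 0.00894 to 6.64 FPKM, and 31 of the 43 were below 1 FPKM.

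**Figure D2:**
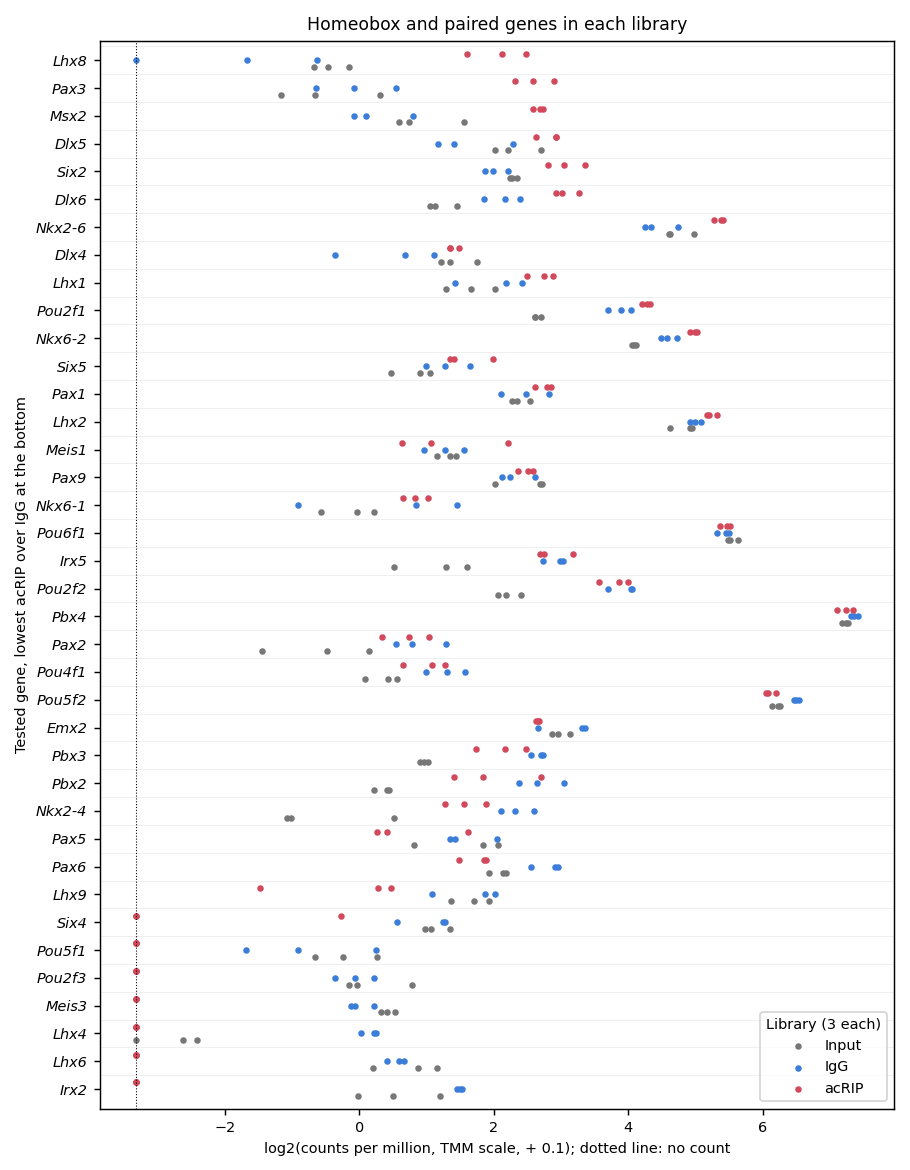
Level of 38 of the tested genes in each library, as log2 of CPM plus 0.1 after TMM scaling (horizontal axis), with genes ordered by the fitted acRIP over IgG change (vertical axis) and 3 points per group. Lhx8, Pax3 and Msx2 at the top have all acRIP points to the right of the other groups, and 6 genes near the bottom have all acRIP points at no count.

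Against IgG, the control for RNA that sticks to the beads or to any antibody, 5 tested members were higher in acRIP and 11 were lower (edgeR quasi-likelihood test, Benjamini-Hochberg adjusted p under 0.05 over all tested genes and a fold change over 2). Over all tested genes 11.5% were called higher and 20.9% lower. The members' shares were 11.6% and 25.6%, near this background for the higher calls. Against input, 13 members were higher and 9 lower, or 30.2% and 20.9% of those tested, where 17.7% and 22.9% of all tested genes were called. Only genes called against both controls were read as standing apart in acRIP. These were 3 higher members (6.98%), where 7.88% of all tested genes were called so, and 9 lower members (20.9%), where the share of all tested genes was 17%. Lhx4 and Pou5f1 passed the filter through the group where they were high, and without them 9 members were lower than IgG and 8 lower than both. The median log2 fold change of the 43 members was -0.14 over IgG and 0.40 over input, and that of all tested genes was -0.09 and -0.10. The members' median over input turned to -0.08 with DESeq2 and to -0.10 with no filter, each over 68 members. The median of all genes over input was -0.38 and -0.44 under these settings. The comparisons share the acRIP libraries, so their counts are not independent of each other.

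Lhx8, Pax3 and Msx2 were higher in acRIP than in both controls. Lhx8, which is needed for forebrain cholinergic neurons and for oocyte development, had 66, 98 and 48 counts in acRIP, 8, 0 and 4 in IgG and 20, 18 and 12 in input. Every acRIP library of Lhx8 was above every other library. The log2 fold change was 4.13 ± 0.57 (SE) over IgG (adjusted p = 2.57e-07, edgeR) and 2.69 ± 0.47 over input (adjusted p = 8.46e-06). Without IgG replicate 1 the value over IgG was 5.22, and without IgG replicate 2 it was 3.51.

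Pax3, a paired-box gene of neural crest and muscle progenitors, had 76, 106 and 120 counts in acRIP, 20, 16 and 10 in IgG and 11, 12 and 26 in input. The acRIP libraries did not overlap either control, and IgG and input overlapped each other. On the log2 scale it rose by 2.74 ± 0.40 over IgG (adjusted p = 5.64e-07, edgeR) and by 3.20 ± 0.40 over input (adjusted p = 1.72e-08), the latter 3.81 without input replicate 3. Msx2, a target of BMP signalling in the limb and skull, had 102, 105 and 104 counts in acRIP, 24, 16 and 18 in IgG and 50, 64 and 32 in input. It rose by 2.46 ± 0.34 over IgG (adjusted p = 2.02e-07, edgeR) and by 1.70 ± 0.31 over input (adjusted p = 1.09e-05) on the log2 scale. These 3 genes were low before precipitation, with mean input levels of 0.263, 0.111 and 0.604 FPKM for Lhx8, Pax3 and Msx2.

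Six2 and Dlx5 were higher over IgG alone. Six2, which keeps nephron progenitors undifferentiated, had 127, 181 and 113 counts in acRIP, 57, 67 and 84 in IgG and 160, 107 and 105 in input. Dlx5, a gene of the branchial arches and bone, had 116, 134 and 100 counts in acRIP, 70, 48 and 40 in IgG and 127, 102 and 146 in input. On the scale of each library's size, all acRIP libraries of both genes lay above the IgG libraries. The log2 fold changes of Six2 were 1.08 ± 0.22 over IgG (adjusted p = 6.98e-05, edgeR) and 0.81 ± 0.21 over input (adjusted p = 0.000843), and those of Dlx5 were 1.18 ± 0.27 (adjusted p = 0.000284) and 0.51 ± 0.25 (adjusted p = 0.0677). These calls sit at the threshold. The Six2 value over IgG was 1.0 without IgG replicate 2 and 0.92 without acRIP replicate 2, and the Dlx5 value was 0.96 without IgG replicate 3.

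**Figure D3:**
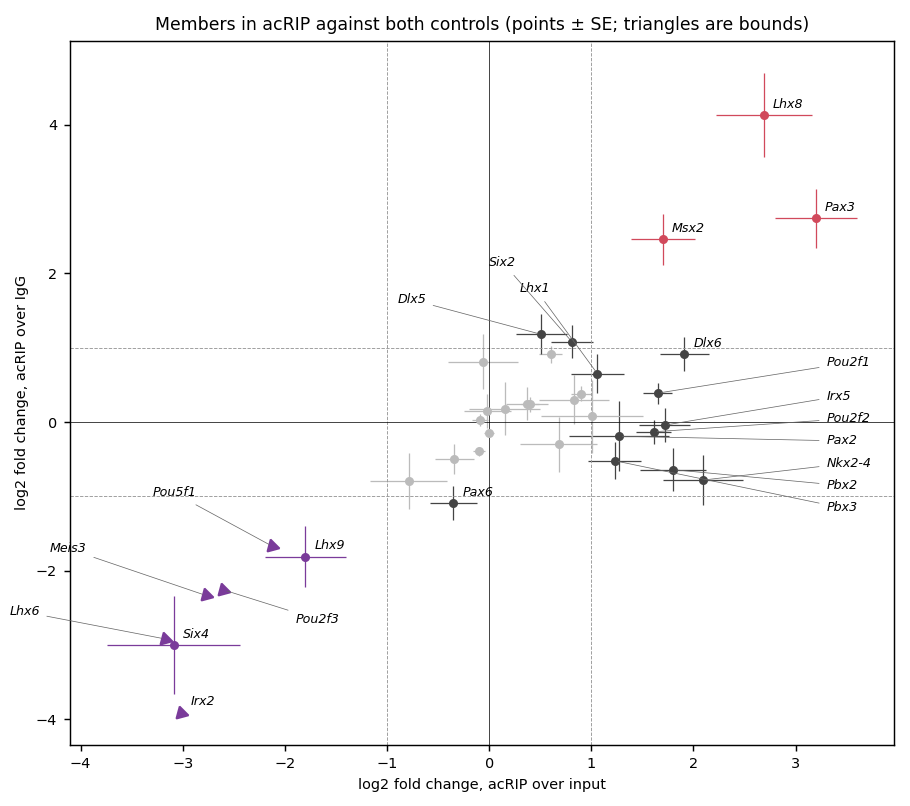
log2 fold change of 37 tested genes in acRIP over input (horizontal axis) and over IgG (vertical axis), with bars of 1 SE; red points are higher and purple ones lower against both controls, dark grey ones were called in 1 comparison and light grey ones in none. Triangles stand at the bound for genes with no acRIP count, whose changes lie further down and left, and Lhx4, which has no bound over input, is left out; Lhx8, Pax3 and Msx2 stand alone at the upper right.

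Among the members that fell, 7 of the tested genes had no count in any acRIP library. That is 16.3% of the tested members, where 8.33% of all tested genes and 6.86% of tested protein-coding genes had none. Without Lhx4 and Pou5f1, which passed the filter through the group where they were high, 5 of 41 tested members had none. The shares over all genes were not cut in this way and were not matched for level. With the members below the filter, 26 members with counts elsewhere had none in acRIP. Irx2, an Iroquois gene of neural patterning, had 40, 50 and 52 counts in IgG, 42, 20 and 50 in input and 0 in each acRIP library. It was at least 15-fold lower than in IgG and at least 8.08-fold lower than in input, taking 3 counts in each acRIP library as the floor (adjusted p = 8.51e-09 and 9.44e-08, edgeR). Such bounds take the mean of the control libraries and leave out the spread between them. Without input replicate 3 the Irx2 bound over input was 6.07-fold. Lhx6, which specifies cortical interneurons, had 18, 28 and 26 counts in IgG, 68, 39 and 24 in input and 0 in acRIP, at least 7.55-fold and 9.03-fold lower (adjusted p = 5.19e-07 and 9.32e-08). The Lhx6 bound over input was 7.67-fold without input replicate 1. In input, Irx2 and Lhx6 had mean levels of 0.457 and 0.348 FPKM, above those of Lhx8 and Pax3, which rose. Both were below Msx2, which also rose and had 0.604 FPKM. The part of input level in these calls was not tested.

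Meis3, a TALE partner of Hox proteins, had 12, 20 and 16 counts in IgG, 43, 26 and 28 in input and 0 in acRIP, at least 5.03-fold below IgG and 6.85-fold below input (adjusted p = 7.69e-06 and 9.94e-07, edgeR). Pou2f3, the regulator of tuft cells, had 10, 20 and 16 counts in IgG, 52, 18 and 20 in input and 0 in acRIP, at least 4.78-fold and 6.07-fold lower (adjusted p = 1.60e-05 and 3.04e-06). Pou5f1 encodes Oct4, the pluripotency factor that early germ cells also express. It had 16, 4 and 8 counts in IgG, 35, 12 and 17 in input and 0 in acRIP, at least 3.18-fold and 4.36-fold lower (adjusted p = 0.000324 and 5.11e-05, edgeR). Lhx4, a pituitary gene, had 16, 20 and 17 counts in IgG, 2, 0 and 2 in input and 0 in acRIP. It was at least 5.63-fold below IgG (adjusted p = 2.98e-05, edgeR), and no fold is given over input, where the adjusted p was 0.128. Lhx4 reached the filter's level in more than 1 library of IgG only, and Pou5f1 of input only. Each was tested because that group was high, so the call of Lhx4 against IgG and that of Pou5f1 against input are descriptions. The Pou5f1 bound against IgG was 1.77-fold without IgG replicate 1, and the Pou2f3 bound against input was 4.62-fold without input replicate 1. If both mates of a read pair were counted, 3 pairs are 6 counts and the bounds of these genes run from 1.59-fold to 7.51-fold.

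Other lower members kept some acRIP counts. Six4, a gene of muscle development, had 0, 0 and 12 counts in acRIP, 34, 26 and 42 in IgG and 64, 42 and 56 in input. All its acRIP counts came from replicate 3. The log2 change came to -3.00 ± 0.66 over IgG (adjusted p = 0.000205, edgeR) and -3.09 ± 0.65 over input (adjusted p = 8.84e-05), or -2.38 and -2.47 without acRIP replicate 2, and without acRIP replicate 3 the gene had no acRIP count.

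Lhx9, which is needed to form the gonad, had 4, 20 and 21 counts in acRIP, 58, 38 and 66 in IgG and 118, 56 and 72 in input. It fell by 1.81 ± 0.41 against IgG (adjusted p = 0.000269, edgeR) and by 1.80 ± 0.40 against input (adjusted p = 0.000185) on the log2 scale. Pax6, the eye regulator, was lower against IgG alone, with 56, 48 and 58 counts in acRIP, 85, 140 and 142 in IgG and 138, 84 and 101 in input. Against IgG the log2 change was -1.09 ± 0.23 (adjusted p = 0.00015, edgeR), or -0.96 when acRIP replicate 2 was left out. Against input it was -0.35 ± 0.23 (adjusted p = 0.182). All acRIP libraries of Six4, Lhx9 and Pax6 lay below all IgG libraries once scaled by library size.

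Most members that stood above input in acRIP stood above input in IgG as well. IgG over input called 9 members higher (20.9%, where 13.5% of all tested genes were), and 8 of these 9 were among the 13 called higher in acRIP over input. None of the 8 was called in acRIP over IgG, where their log2 fold changes ran from -0.78 to 0.39 and 7 were below 0. They included Pbx2 and Pbx3, which encode Hox partners, the octamer-binding genes Pou2f1 (Oct1) and Pou2f2 (Oct2), and Pax2, Irx5 and Nkx2-4. The ninth, Lhx4, had no acRIP count and was tested only because IgG was high. No member was called lower in IgG than in input by edgeR or by DESeq2, where 7.22% of all tested genes were. At an unadjusted p under 0.05, 5 members were lower there, and Dlx4, Dlx5 and Nkx2-6 passed the adjusted p but not the fold.

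Nkx2-4 had 12, 30 and 9 counts in input, 72, 112 and 78 in IgG and 44, 64 and 38 in acRIP. Over input its log2 change was 2.09 ± 0.39 (adjusted p = 2.03e-05, edgeR), 2.90 without input replicate 2, and -0.78 ± 0.34 over IgG (adjusted p = 0.0455). Pbx2 had 40, 24 and 28 counts in input, 120, 96 and 114 in IgG and 100, 62 and 42 in acRIP, or 1.80 ± 0.32 over input (adjusted p = 8.64e-06) and -0.64 ± 0.29 over IgG (adjusted p = 0.0525). Both genes had every acRIP and IgG library above every input library.

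Pbx3 had 62, 40 and 42 counts in input, 94, 109 and 122 in IgG and 68, 58 and 90 in acRIP, or 1.23 ± 0.26 over input (adjusted p = 0.000105, edgeR) and -0.52 ± 0.25 over IgG (adjusted p = 0.0656). Scaled by library size, acRIP stood between the controls. Pbx4, the abundant testis member of the same subfamily, did not share this, at 0.00 ± 0.05 over input (adjusted p = 0.97, edgeR) and -0.14 ± 0.05 over IgG (adjusted p = 0.0303).

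Pou2f1 had 192, 145 and 137 counts in input, 241, 278 and 240 in IgG and 300, 330 and 327 in acRIP, or 1.65 ± 0.14 over input (adjusted p = 7.94e-12, edgeR) and 0.39 ± 0.14 over IgG (adjusted p = 0.0134). Its acRIP libraries were above all others by less than 2-fold over IgG. Pou2f2, best known from B cells, had 166, 92 and 101 counts in input, 190, 311 and 306 in IgG and 225, 285 and 192 in acRIP, or 1.61 ± 0.17 (adjusted p = 5.15e-10) and -0.13 ± 0.16 (adjusted p = 0.504). Irx5 had 75, 30 and 67 counts in input, 96, 152 and 146 in IgG and 139, 114 and 109 in acRIP, or 1.72 ± 0.25 (adjusted p = 2.93e-07) and -0.04 ± 0.23 (adjusted p = 0.903). For both, acRIP overlapped IgG. Pax2, a gene of kidney and eye, had 32, 6 and 14 counts in input, 20, 44 and 30 in IgG and 18, 28 and 32 in acRIP, or 1.27 ± 0.49 over input (adjusted p = 0.0206, edgeR) and -0.19 ± 0.47 over IgG (adjusted p = 0.747). The Pax2 call ended without input replicate 2 (0.92, adjusted p = 0.105, edgeR) and without acRIP replicate 3 (1.09, adjusted p = 0.0779).

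**Figure D4:**
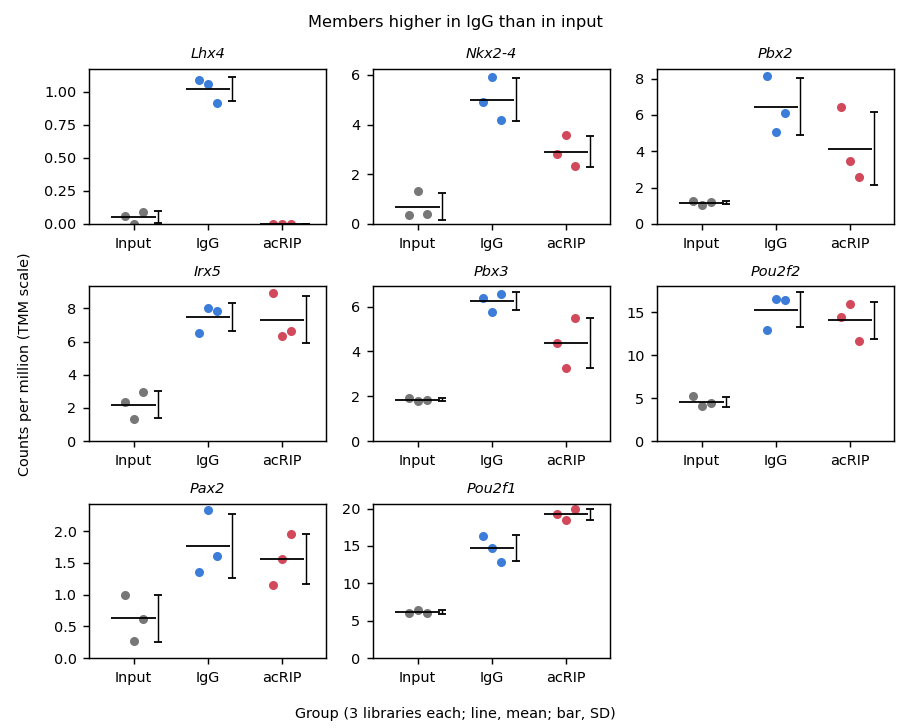
CPM after TMM scaling (vertical axis, from 0 in each panel) in the 3 groups (horizontal axis) for 8 of the genes called higher in IgG than in input, with 1 point per library, a line at the mean and a bar of 1 SD. In 7 panels acRIP stays above input and below 2-fold of IgG, and in the Lhx4 panel acRIP is at 0.

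The remaining members called over input, Dlx6 and Lhx1, were called neither in IgG over input nor in acRIP over IgG. Dlx6, the neighbour and partner of Dlx5 in the branchial arches, had 63, 47 and 60 counts in input, 52, 97 and 82 in IgG and 124, 134 and 156 in acRIP. Its log2 change came to 1.91 ± 0.24 over input (adjusted p = 1.68e-08, edgeR) and 0.92 ± 0.23 over IgG (adjusted p = 0.000742), just under the fold threshold, which it passed when IgG replicate 2 or acRIP replicate 2 was left out. Lhx1, a gene of the head organizer and kidney, had 98, 53 and 90 counts in input, 38, 84 and 98 in IgG and 86, 130 and 109 in acRIP, or 1.06 ± 0.26 over input (adjusted p = 0.000526) and 0.65 ± 0.26 over IgG (adjusted p = 0.0289). Its value over input was 0.89 without input replicate 2 and 0.98 without acRIP replicate 2. Scaled by library size, acRIP was above every control library for Dlx6 and for Lhx1.

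Neither acRIP comparison called the other 17 tested members, among them Dlx4, Emx2, Lhx2, Meis1, Nkx2-6, Nkx6-1, Nkx6-2, Pax1, Pax5, Pax9, Pbx4, Pou4f1, Pou5f2, Pou6f1 and Six5. Their log2 fold changes ran from -0.90 to 0.91 over IgG, with SE of 0.05 to 0.49, and from -0.79 to 1.01 over input, with SE of 0.05 to 0.50. The 5 most abundant members are among them.

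By class, acRIP against IgG called 1 of 6 tested LIM genes higher (Lhx8) and 3 lower (Lhx4, Lhx6 and Lhx9), where all tested genes had shares of 11.5% and 20.9%. Without Lhx4, which was tested only because IgG was high, 2 of 5 LIM genes were lower. Of 8 tested POU genes 3 were lower and none higher, and of 8 tested TALE genes 2 were lower and none higher. The lower POU genes include Pou5f1, which passed the filter through input. Of 10 tested genes of the NK type and its relatives (Nkx, Dlx, Msx, Emx) 2 were higher and 1 lower. The 6 tested paired-box genes and the 4 tested SINE-class genes each had 1 higher and 1 lower. None of the 7 Cdx, Gsx and Gbx genes could be tested. Of the 8 TALE genes, 4 were higher in acRIP over input and 4 in IgG over input, where 17.7% and 13.5% of all tested genes were. Differences between classes were not tested.

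**Figure D5:**
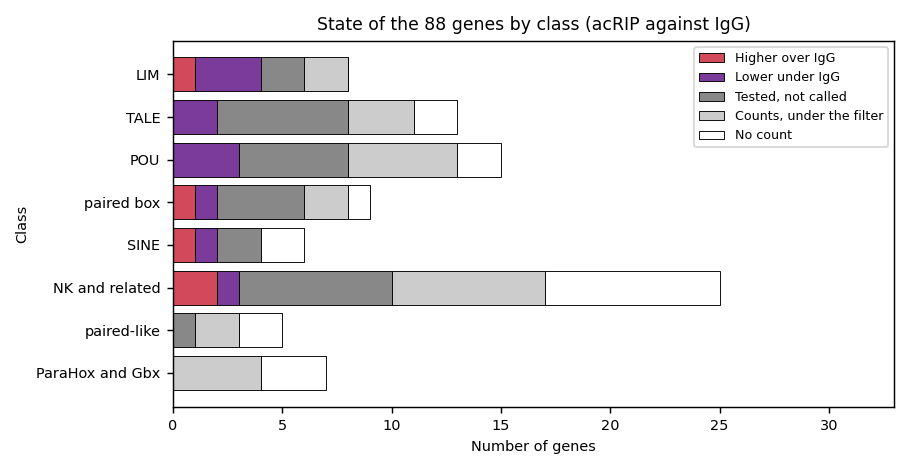
Number of genes (horizontal axis) of each class (vertical axis) by state, with tested genes split by the call in acRIP against IgG. The LIM, paired-box, SINE and NK classes hold both higher and lower genes, and the Cdx, Gsx and Gbx genes hold no tested gene.

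The study derived an octamer from its own acRIP peaks in testis, namely C, then any base but G, then CAG, then C or G, then any base but G, then C. It was chosen on these libraries and is used here as a description only. Searched on the coding strand within merged exons, it occurred at least once in 86 of 88 members (97.7%), and in 85.4% of 15512 tested protein-coding genes. Merged exons of the tested members held a median of 0.882 per kilobase, against 0.646 over tested protein-coding genes, and their median GC content was 53.2% against 49.1%. The density was 0.79 per kilobase in Lhx8, 0.647 in Pax3 and 0.305 in Msx2, and its median over the 9 lower members was 1.29. Over tested protein-coding genes the median was 0.684 in the 912 called higher against both controls and 0.637 in the 2496 called lower. Among the 43 tested members the Spearman correlation of density with the log2 change over IgG was -0.04. The members without one were Gsx2 and Irx2. The octamer that lies wholly in coding sequence and nearest to the start of the gene is shown, in capitals within 24 bases, for the 3 higher members and for 3 lower ones.
Lhx8, chr3:154316804-154316827, minus strand: acagttcgCTCAGGACaacaaccc
Pax3, chr1:78121667-78121690, minus strand: actgcctcCCCAGCACcaggcatg
Msx2, chr13:53468407-53468430, minus strand: tacagagaCCCAGGTCaaaatctg
Six4, chr12:73112397-73112420, minus strand: ctccctcaCCCAGGTCagcaactg
Pou2f3, chr9:43146854-43146877, minus strand: ccctctccCACAGGCCatgccacc
Pou5f1, chr17:35509096-35509119, plus strand: actacagtCCCAGGACatgaaagc

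Msx2 and Six4 carry the identical octamer shortly before the recognition helix signature, and acRIP rose for Msx2 and fell for Six4.

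Exons of 31 members overlap an exon of another gene, and without a stated use of strand reads there cannot be assigned with certainty. Among members called in acRIP the longest such overlap was that of Pou2f1 with Cd247 on the opposite strand (3007 bases, 18.1% of its exon length), and Cd247 had 27 to 44 counts in acRIP. Pbx2 shares 227 bases with Gpsm3 on the same strand, which had no acRIP count. Dlx6 shares 104 bases with the antisense transcript Dlx6os2. Dlx6os2 had 12, 23 and 22 counts in acRIP, 0, 2 and 10 in IgG and 8, 2 and 8 in input. Pou5f1 shares 317 bases with an antisense gene that had no count in any library. Of the uncalled members given by FPKM, Nkx6-2 shares 246 bases (12.9%) with Inpp5a on the opposite strand. Inpp5a had 419, 467 and 448 counts in acRIP and 1024, 743 and 757 in input. Nkx2-6 shares 56 bases (4.94%) with the antisense gene 1700092C10Rik, which had 422, 522 and 556 counts in acRIP and 646, 504 and 431 in input. Lhx8, Pax3, Msx2, Irx2 and Six4 overlap no exon of another gene, and no stretch of 100 bases of their exons occurs in an annotated transcript of another gene.

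The partners of these factors were taken from a list of 29 genes, of which 25 were tested. In acRIP 2 (8%) were higher and 5 (20%) lower than both controls, near the 7.88% and 17% of all tested genes, and the median log2 fold change over IgG was -0.16. Ldb1, the adaptor that LIM-homeodomain factors bind, was singled out after its values were seen. It had 93, 141 and 99 counts in acRIP, 36, 40 and 76 in IgG and 26, 12 and 24 in input. It rose by 1.20 ± 0.29 over IgG (adjusted p = 0.000687, edgeR) and by 3.04 ± 0.32 over input (adjusted p = 7.79e-10) on the log2 scale, and all its acRIP libraries were above all others. Mkx, a TALE gene of tendon, had 46, 40 and 34 counts in acRIP, 0 in IgG and 16, 39 and 14 in input. It was at least 13.9-fold above IgG (adjusted p = 1e-07, edgeR) and 1.37 ± 0.51 above input on the log2 scale (adjusted p = 0.0182).

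Of the lower partners, Tle2, a Groucho-type corepressor, had no acRIP count against 18, 36 and 24 in IgG and 18, 24 and 42 in input, at least 8.14-fold and 6.38-fold lower (adjusted p = 1.5e-06 and 2.69e-06, edgeR). Its bound against input was 4.49-fold without input replicate 3. Tgif2, a TALE repressor, had no acRIP count against 3, 20 and 4 in IgG and 25, 17 and 25 in input, at least 2.72-fold and 4.84-fold lower (adjusted p = 0.00053 and 4.13e-05). It passed the filter through input, and its bound against IgG was 1.16-fold without IgG replicate 2. Ssbp4, of a family that binds Ldb1, had 27, 20 and 42 counts in acRIP, 222, 260 and 210 in IgG and 320, 186 and 168 in input, or -2.89 ± 0.24 over IgG (adjusted p = 9.38e-12, edgeR) and -2.25 ± 0.24 over input. Dach1, which acts with Eya proteins, had 0, 16 and 0 counts in acRIP, 22, 20 and 28 in IgG and 62, 29 and 31 in input, or -2.09 ± 0.71 over IgG (adjusted p = 0.0108) and -2.28 ± 0.69 over input. All its acRIP counts came from replicate 2, without which it had none. Ssbp2, of the same family as Ssbp4, had 118, 100 and 86 counts in acRIP, 280, 344 and 331 in IgG and 506, 355 and 371 in input, and fell by 1.58 ± 0.15 against IgG (adjusted p = 2.77e-10, edgeR) and by 1.38 ± 0.15 against input. Ssbp3, the other tested gene of that family on the list, was called in neither comparison, at 0.37 ± 0.12 over IgG (adjusted p = 0.00801, edgeR) and 0.10 ± 0.12 over input (adjusted p = 0.462).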

How the data were processed

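The authors deposited raw counts of uniquely mapped reads per gene and exon lengths. Per the labels, reads were processed with Trim Galore 0.6.7, STAR 2.7.10a and featureCounts 2.0.2 on mm10. Not given in the sources used here are the annotation release, the use of strand, and if mates of a pair were counted singly. Among counts of 1 to 20, 83.2% were even over all genes and 91.9% over the members. If pairs count as 2 the precision is lower than the counts imply. Genes were named by GENCODE vM21 (55141 of 55401 identifiers matched).

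Counts were filtered (filterByExpr), scaled by TMM and tested with edgeR 4.0.16 (R 4.3.3, quasi-likelihood, all 9 libraries, 1 mean per group). Scripts were tested on simulated data. Library replicates differed beyond sampling noise. Alternatives were DESeq2 1.42.0, other scalings and filters, glmTreat, a replicate block, halved counts and leaving out each library. Members called in acRIP are given with all counts, the 5 highest with FPKM, others by range, and list genes if called against both controls, at most the 6 of largest change per list, with Ldb1 and Ssbp3 added after their values were seen. Some genes are counted but not reported here by name. Members and lists were chosen with earlier results of these data known.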

Additional observations from a re-analysis of the deposited data

How the results depend on the processing

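The 38 single-gene changes of called members were recomputed 714 times under the alternatives. None reversed, 698 kept their call, and 16 fell under a threshold, among them those of Dlx5, Six2, Pax6, Lhx1, Pax2 and Pbx3. Testing directly against a fold of 2 (glmTreat) left 3 members higher over IgG in place of 5, without Dlx5 and Six2. With no filter on low counts, 17 members were lower than in IgG in place of 11, the additions being Cdx2, Irx6, Meis2, Msx3, Otx1 and Pitx3, which the filter had removed. Lower in IgG than in input were 0 members, but 1 with no filter and 1 with upper-quartile scaling, Lhx8 each time. Leaving out each library in turn gave 4 to 6 members higher and 11 to 14 lower than IgG, 11 to 14 higher and 9 to 10 lower than input, 8 to 12 higher and 0 to 3 lower in IgG than input (3 without IgG replicate 1, namely Dlx5, Lhx8 and Msx2), and 3 to 4 higher and 9 to 10 lower against both. The median of the members over input was 0.40 for 43 members and -0.08 with DESeq2 or -0.10 unfiltered, both over 68 members, while that of all genes moved from -0.10 to -0.38 and -0.44. Upper-quartile scaling moved the median of all genes in IgG over input from -0.01 to -0.11. Halved counts took Lhx4, Pou2f3 and Pou5f1 below the filter, so they were no longer tested. Low counts limit the calls of genes with no acRIP count.

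Replicate numbers recur across groups, but libraries of the same number did not deviate together (correlations of -0.00659 to 0.0351, against -0.0295 to 0.0271 for other numbers), so they were not paired. With the replicate block, 5 members were higher and 11 lower than IgG, 13 and 9 than input, and 3 and 9 than both.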

Other observations

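Other homeobox genes, from a list of 87 of which 36 were tested, were called both ways, with 6 higher and 6 lower than both controls in acRIP, 16.7% each, where 7.88% and 17% of all tested genes were. Nanog, a pluripotency factor, had 22, 32 and 20 counts in acRIP, 0 in IgG and 1, 0 and 3 in input, at least 8.44-fold above IgG (adjusted p = 5.69e-06). Rhox10, a gene of the X-linked Rhox cluster known from male germ cells, had 30, 34 and 56 counts in acRIP, 0, 2 and 0 in IgG and 20, 6 and 2 in input, a ratio over IgG of 62.8 with a counting interval of 17 to 525. Nanog and Rhox10 passed the filter through acRIP, the group where they were high, so these values are descriptions. Onecut3 had no acRIP count against 8, 8 and 14 in IgG and 12, 14 and 26 in input, at least 3.17-fold and 3.93-fold lower (adjusted p = 0.000222 and 6.46e-05). Its bound against input was 2.75-fold without input replicate 3. Mnx1, a motor neuron gene, had no acRIP count against 0, 3 and 10 in IgG and 24, 4 and 18 in input, at least 1.28-fold and 3.16-fold lower (adjusted p = 0.0125 and 0.000604, edgeR), and if 3 read pairs are 6 counts no bound against IgG remains. Nor does one without IgG replicate 3, and Mnx1 passed the filter through input.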
